A study of Mus musculus with 95 samples.

Results

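Kidneys of untreated SNF1 mice at week 14 of the study (n = 5) were set against kidneys of untreated SNF1 mice at week 12 (n = 10), 15 of the 95 arrays of the series. The members were taken by their sample titles, and every comparison was made with all 15 mice and again with 14 mice, without week 12 mouse 10, whose array carried high levels of immune and injury genes. SNF1 mice descend in the F1 generation from SWR and NZB parents and develop lupus nephritis on their own. All 15 were females that received no pristane, the hydrocarbon oil that accelerates the disease, and served as age-matched controls of mice injected at 9 weeks of age. On that schedule the mice were 23 weeks old at week 14 and 21 weeks old at week 12. Each array (Affymetrix HT MG-430 PM) carried total RNA of kidney from 1 mouse, and values are log2 expression after RMA, so that a difference of 1 is a doubling. How much of a kidney was homogenized is not stated. The study ran 2 independent longitudinal experiments, and the labels do not say which experiment, cage, plate or hour of collection a mouse belonged to.

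In lupus-prone mice, immune complexes that settle in the glomerulus draw in macrophages, switch on complement and interferon-induced genes, and in time injure the tubules. The tubules make up most of the mass of a kidney, and the proximal tubule reabsorbs sugars, amino acids and phosphate at the cost of fatty acid oxidation. Many of the transporters and enzymes of the tubule follow the circadian clock, a loop in which Arntl (BMAL1) and Clock or Npas2 activate Per, Cry, Nr1d and Dbp genes, whose products feed back on them. The comparison asks how much the kidney of an untreated mouse differed between these time points, which is the background for any change ascribed to pristane at week 14.

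No probe set passed limma's test at an adjusted p under 0.05. Of 45037 probe sets tested, 0 were called with all mice (0%) and 0 without mouse 10 (0%), and the smallest adjusted p was 0.147 with all mice and 0.127 without mouse 10. At an unadjusted p under 0.05 there were 5457 probe sets (12.1%) without mouse 10, of which 4182 (9.29%) were higher and 1275 (2.83%) lower at week 14. With all mice there were 4638 (10.3%), with 3125 (6.94%) higher and 1513 (3.36%) lower. Taken by gene, with the probe set of highest mean over all arrays standing for each of 17097 genes, 2197 genes (12.9%) were higher and 373 (2.18%) lower at week 14 at an unadjusted p under 0.05 without mouse 10. With all mice the shares were 9.21% higher and 2.69% lower. The median difference of all genes was 0.019 without mouse 10 and 0.0016 with it. With probe sets below the 40th percentile of mean level left out, that median was 0.10 without mouse 10 and 0.079 with it. Whatever its p, the mean was higher at week 14 for 10587 genes (61.9%) and lower for 6510 (38.1%) without mouse 10, and higher for 8694 (50.9%) and lower for 8403 (49.1%) with all mice. These shares are the background against which the members of each gene list below are counted.

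A second fit took the spread of all untreated mice of the series, weeks 0 to 14, in place of the spread of these mice alone. In that fit, without mouse 10, 188 genes (1.1%) were higher and 15 (0.0877%) lower at an adjusted p under 0.05, and with all mice 121 genes (0.708%) were higher and 18 (0.105%) lower. By probe set these were 343 (0.762%) higher and 69 (0.153%) lower without mouse 10, and 232 (0.515%) higher and 87 (0.193%) lower with all mice. The values that follow are differences of week 14 minus week 12 without mouse 10, with the standard error of the limma fit of these mice alone, unless all mice are named. None of the genes named passed that fit, and a gene that passed with the spread of all untreated mice is said to have done so.

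Several week 12 mice stood apart from the rest. Array medians lay between 4.22 and 4.33 at week 14 and between 4.23 and 4.57 at week 12, and the median of all pairwise correlations was 0.993. Week 12 mouse 10 was lowest, with a median correlation of 0.980 with the other arrays, and had 569 genes more than 1 log2 unit above every other week 12 mouse. Without it, the first principal component held 46.9% of the variance and set week 12 mice 3, 5 and 6 apart, at 46.5, 74.3 and 51.6, against -39.7 to 10.6 for the week 14 mice and -37.1 to 8.86 for the other week 12 mice. The mean level of genes of the adrenal gland, which lies on the kidney, was 5.72 to 7.68 in week 12 mice 1, 2, 4 and 8, and 3.26 to 3.61 in every other mouse. No measured gene of the early proximal tubule list, which marks kidney, was at the floor of the table in all mice of a week. Nothing in the labels says that the mouse numbers pair animals, and p-values measure the spread between mice only.

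**Figure D1:**
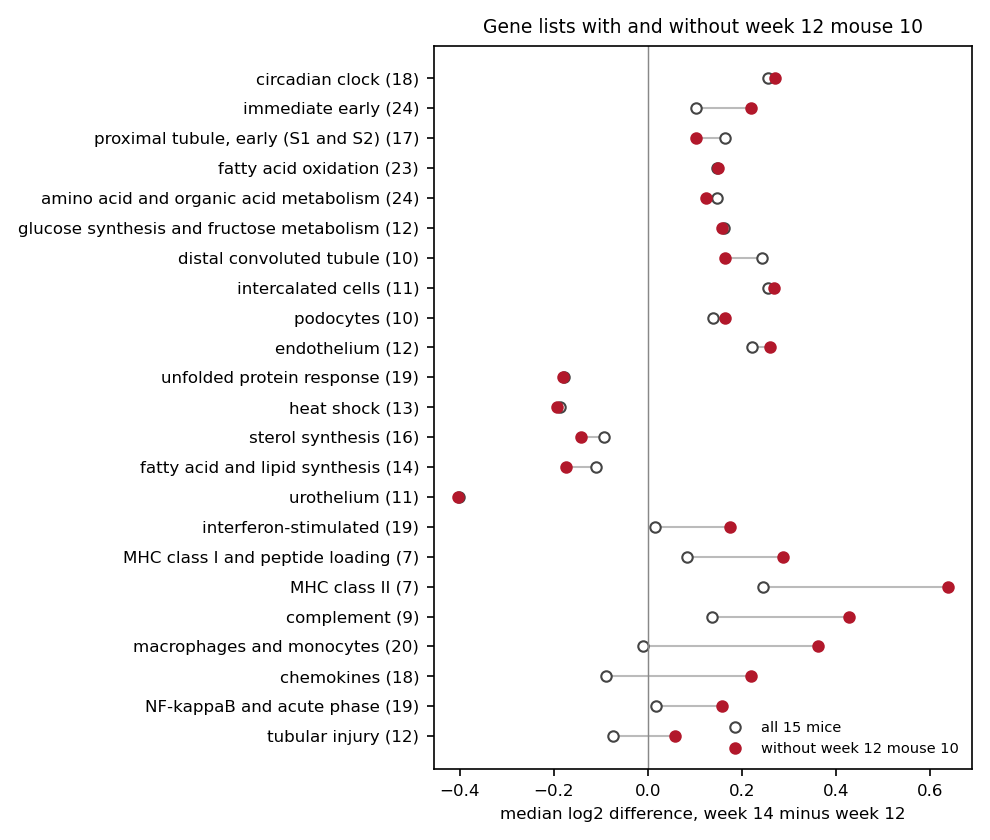
Median log2 difference, week 14 minus week 12, of the measured genes of 23 lists (number measured in parentheses), with all 15 mice (open circles) and without week 12 mouse 10 (filled circles). The medians of the MHC class II list were 0.25 with all mice and 0.64 without mouse 10, while those of the circadian clock (0.26 and 0.27) and the unfolded protein response (-0.18 both ways) hardly moved.

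The genes with higher means and the smallest p had little spread within each week, in part through values that repeat exactly. Dzip1, which acts in the primary cilium, stood at 7.55, 7.77, 7.87, 8.09 and 7.69 in the 5 week 14 mice, while the week 12 mice ran from 6.92 through a median of 7.16 to 7.34. Every week 14 mouse lay above every week 12 mouse, mouse 10 included. The difference was 0.65 ± 0.09 (SE, limma adjusted p = 0.127), and Dzip1 had an adjusted p of 0.000564 with the spread of all untreated mice. Wdfy3, an adaptor of selective autophagy, was 0.24 ± 0.03 higher at week 14 (adjusted p = 0.127; 0.0161 with the spread of all untreated mice). Its week 14 values were 11.53 to 11.67, against 11.31 to 11.54 at week 12, with mouse 10, at 11.54, the highest week 12 mouse and the only one to overlap. Ldb1, a cofactor of LIM domain transcription factors (0.36 ± 0.06), Gucy1a1, a subunit of the nitric oxide receptor guanylate cyclase (0.60 ± 0.09), and Pld6, a phospholipase of the mitochondrial surface (0.23 ± 0.04), had adjusted p-values of 0.157. Pld6 had exactly the same value, 4.01, in week 12 mice 3 to 9, and Dzip1 the same, 7.07, in week 12 mice 1, 2 and 3. Such repeats make the spread smaller, and their origin was not tested. Not every probe set of Dzip1, Wdfy3 and Gucy1a1 had a higher mean, with 2 of 3, 3 of 4 and 2 of 3 higher without mouse 10. Genes without overlap between the groups were few, with 110 genes (0.643%) wholly above and 5 (0.0292%) wholly below the week 12 mice without mouse 10.

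Among the genes with lower means, Scn3a, a voltage-gated sodium channel of nerve cells, read 2.54, 3.15, 3.10, 2.90 and 3.57 at week 14, and the lowest, median and highest week 12 mice had 3.67, 4.30 and 5.34. The groups did not overlap, and the difference was -1.18 ± 0.28 (adjusted p = 0.204; 0.0358 with the spread of all untreated mice). Tmeff2, a transmembrane protein with follistatin domains (-0.82 ± 0.16, adjusted p = 0.159; 0.0445), and Pabpc4l, a poly(A)-binding protein relative (-1.18 ± 0.27, adjusted p = 0.193; 0.0298), also passed with the spread of all untreated mice. Pgm2l1, which makes glucose 1,6-bisphosphate (-0.26 ± 0.05, adjusted p = 0.159), and Ube2g2, a ubiquitin-conjugating enzyme of the endoplasmic reticulum (-0.27 ± 0.06, adjusted p = 0.206), did not. Scn3a, Tmeff2 and Pabpc4l were all at 6.67 or below in every mouse. The other probe sets of these 3 genes did not have lower means, with 1 of 2 probe sets lower for Scn3a, 1 of 3 for Tmeff2 and 1 of 2 for Pabpc4l, and Pgm2l1 averaged over all its probe sets differed by 0.0015.

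Among genes of the circadian clock, Dbp, Hlf, Tef and Per3 had higher means at week 14, and Arntl, Npas2 and Cry1 lower ones. Of 18 measured clock genes, 8 were higher and 3 lower at an unadjusted p under 0.05 without mouse 10, and 7 and 3 with all mice, against the 12.9% and 2.18% of all genes. The median of the list was 0.27, beside 0.019 for all genes. Dbp, an output transcription factor of the clock that binds D boxes, read 7.51, 7.19, 6.99, 7.47 and 6.55 in the week 14 mice and ran from 4.07 through 5.89 to 6.61 in the week 12 mice. The 4 highest week 14 mice exceeded every week 12 mouse, and mouse 5 at 6.55 lay just below week 12 mouse 9. The difference was 1.29 ± 0.31 without mouse 10, a 2.44-fold higher level at week 14 (adjusted p = 0.205; 0.0161 with the spread of all untreated mice), and 1.46 ± 0.38 with all mice, since mouse 10 had the lowest value.

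**Figure D2:**
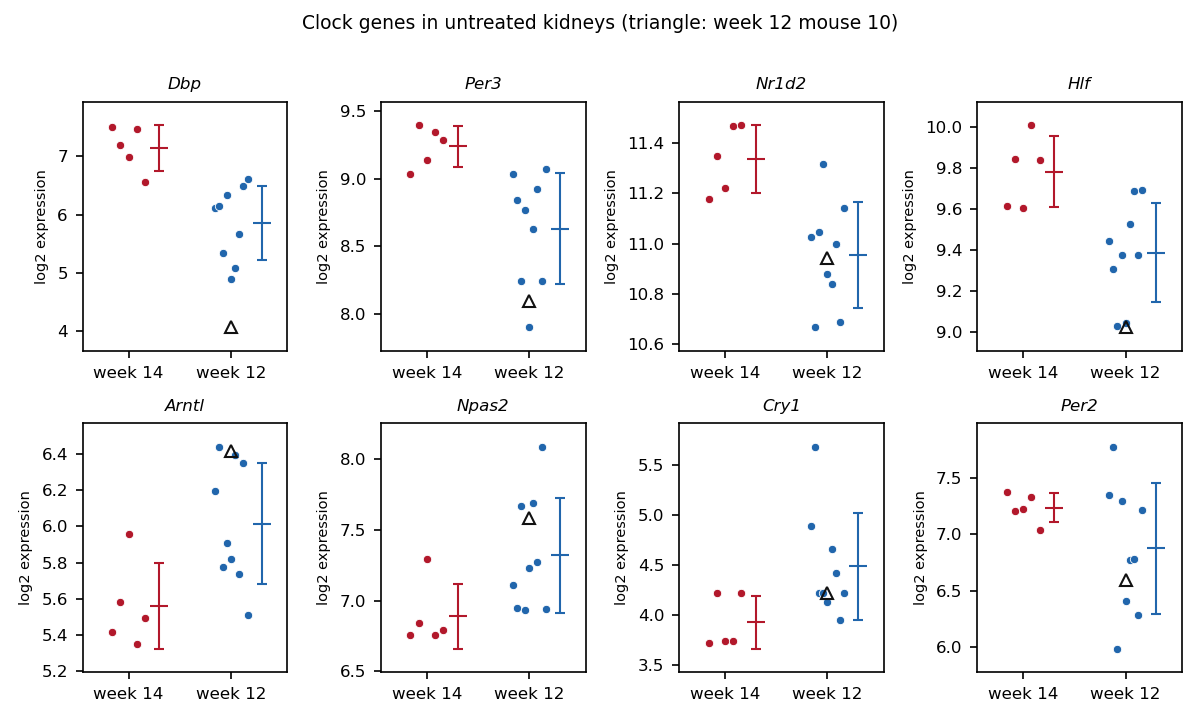
Log2 expression of 8 clock genes in each untreated mouse, week 14 (5 mice, left) and week 12 (9 mice, right), with mean and SD beside the points and week 12 mouse 10 as an open triangle, not in the mean. Dbp, Per3, Nr1d2 and Hlf sit higher at week 14 and Arntl, Npas2 and Cry1 lower, with overlap in each panel, and Dbp of mouse 10 lies at 4.07.

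The other D box factors also had higher means. Hlf was 0.39 ± 0.12 higher (9.78 ± 0.17 at week 14 and 9.39 ± 0.24 at week 12; SD, n = 5 and 9) and Tef 0.30 ± 0.11 (10.60 ± 0.14 and 10.31 ± 0.23). Per3, a period gene of the feedback arm, stood at 9.04, 9.40, 9.14, 9.35 and 9.28 at week 14, and between 7.90 and 9.07 with a median of 8.70 at week 12. Only week 14 mouse 1 fell within the range of week 12, and the difference was 0.61 ± 0.19 (adjusted p = 0.263). Higher means were seen on 3 of 5 probe sets of Per3 and on 1 of 2 of Tef. Nr1d2, a REV-ERB repressor of Arntl, was 0.38 ± 0.10 higher (11.34 ± 0.13 and 10.96 ± 0.21; adjusted p = 0.235) and passed with the spread of all untreated mice (adjusted p = 0.0128).

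Arntl and Npas2 had lower means, and so did Cry1, although Cry genes are activated by Arntl as Per genes are. Arntl read 5.42, 5.58, 5.96, 5.35 and 5.49 at week 14, and 5.51, 6.05 and 6.44 were the lowest, median and highest values of week 12. The groups overlapped, and the difference was -0.45 ± 0.17 (adjusted p = 0.325). Npas2, the partner of Arntl, was -0.43 ± 0.20 (adjusted p = 0.406), and Cry1, a cryptochrome that peaks late in the cycle, was -0.56 ± 0.25 (adjusted p = 0.401). Cry1 was highest in week 12 mice 1 and 2, at 4.89 and 5.69. The week 12 median of Cry1, 4.22, was the value of week 14 mice 2 and 5. Per2, whose week 14 values of 7.04 to 7.37 all lay within the week 12 range of 5.98 to 7.78, differed by 0.36 ± 0.26 (adjusted p = 0.574). Within week 12 the clock genes also differed between mice, with Dbp at 5.35, 4.90 and 5.08 in mice 3, 5 and 6 and between 5.66 and 6.61 in the 6 remaining mice apart from mouse 10. Without mice 3, 5 and 6 the difference in Dbp was 0.91 (adjusted p = 0.472), and the clock list then had 5 members higher and 1 lower. Among all probe sets 2202 were then higher and 809 lower, beside 4182 and 1275 with these mice. Here and in the refits below, list counts are of genes, while the background counts are of 45037 probe sets. The units differ, with 9.29% of probe sets but 12.9% of genes higher on the deposited values without mouse 10. The share of genes was not counted in the refits, so that these counts show only how the background moved.

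**Figure D3:**
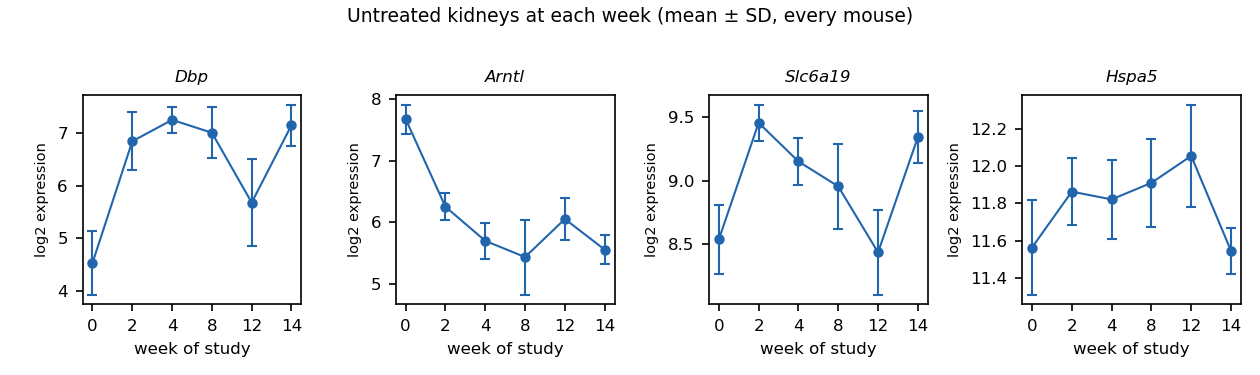
Mean log2 expression (± SD over the mice of a week, mouse 10 included) of Dbp, Arntl, Slc6a19 and Hspa5 in untreated kidneys at weeks 0, 2, 4, 8, 12 and 14. Dbp was 4.54 at week 0, 6.84 to 7.24 at weeks 2 to 8, 5.68 at week 12 and 7.14 at week 14, and Arntl ran the opposite way at week 0, at 7.67.

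Over all untreated weeks the week 14 mean of Dbp lay among those of weeks 2 to 8, and the week 12 mean below them. Over weeks 0, 2, 4, 12 and 14 the means were 4.54 ± 0.60, 6.84 ± 0.55, 7.24 ± 0.25, 5.68 ± 0.82 and 7.14 ± 0.39 (SD, n = 7, 10, 9, 10 and 5), and the week 8 mean lay between those of weeks 2 and 4. Per3 followed with 6.86, 8.81, 9.16, 9.02, 8.58 and 9.24, and Arntl with 7.67, 6.25, 5.70, 5.44, 6.06 and 5.56, over weeks 0, 2, 4, 8, 12 and 14. Week 0 had the lowest Dbp and Per3 and the highest Arntl. The hour of day at which kidneys were taken is not given in the sources used here, and its part in these values was not tested.

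The promoters of 2 clock genes are shown because they hold the elements through which clock proteins act, the E box CACGTG, bound by BMAL1 with CLOCK or NPAS2, and the D box TTATGNAA, bound by DBP, HLF and TEF. Each run is 300 bases from RefSeq on GRCm38.p6, 5′ to 3′ on the strand of the gene, from 250 before to 50 after its start, with the element in capitals. Tef lies on the plus strand at chr15:81802423-81802722 and Per3 on the minus strand at chr4:151044616-151044915.
Tef: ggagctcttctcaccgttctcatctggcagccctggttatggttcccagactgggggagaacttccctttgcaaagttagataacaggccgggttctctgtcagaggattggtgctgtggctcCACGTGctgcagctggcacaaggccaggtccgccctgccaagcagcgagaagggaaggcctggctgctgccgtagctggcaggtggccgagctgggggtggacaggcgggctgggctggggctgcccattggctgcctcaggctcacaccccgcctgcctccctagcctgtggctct
Per3: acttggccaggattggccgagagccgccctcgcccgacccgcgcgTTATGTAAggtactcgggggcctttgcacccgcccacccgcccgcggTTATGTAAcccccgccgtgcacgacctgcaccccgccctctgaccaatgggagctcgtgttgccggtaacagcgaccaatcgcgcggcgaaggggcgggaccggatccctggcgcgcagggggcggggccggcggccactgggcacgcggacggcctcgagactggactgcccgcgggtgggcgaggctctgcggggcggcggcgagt
Both strands were searched. The E box begins 127 bases before the start of Tef, and the first of 2 D boxes begins 205 bases before the start of Per3. Of the 16 measured clock genes with a promoter in the table, 5 held an E box (Per1, Cry1, Tef, Bhlhe41 and Ciart) and 2 a D box (Per1 and Per3), beside 7.15% and 3.38% of all 32851 promoters. Dbp held neither in this window, which says only that these letters are not in it.

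Among genes of the early proximal tubule more were higher than lower at week 14. Of 17 measured genes of this list, 6 were higher and 0 lower at an unadjusted p under 0.05, with and without mouse 10. The share of all genes higher was 12.9% without mouse 10 and 9.21% with it. The median difference was 0.10 without and 0.16 with mouse 10, beside 0.10 and 0.079 for genes above the 40th percentile of mean level. In RNA of kidney tissue, more cells of a type and more RNA per cell cannot be told apart, here or in the lists below. Slc6a19 (B0AT1), the apical transporter that reabsorbs neutral amino acids, led them with 9.38, 9.53, 9.03, 9.51 and 9.27 at week 14, against 8.05, 8.32 and 9.09 as the lowest, median and highest of week 12. Only week 12 mouse 9 reached the lowest week 14 mouse. The difference was 0.90 ± 0.17 (1.86-fold, adjusted p = 0.157), with an adjusted p of 0.00338 with the spread of all untreated mice. Over weeks 0, 2, 4, 8, 12 and 14 its means were 8.54 ± 0.27, 9.46 ± 0.14, 9.15 ± 0.19, 8.96 ± 0.34, 8.43 ± 0.33 and 9.34 ± 0.21, with the lowest at week 12.

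The basolateral amino acid exchanger subunit Slc7a7 was 0.28 ± 0.07 higher (11.19 ± 0.11 and 10.91 ± 0.14; 0.0442 with the spread of all untreated mice). The organic anion transporter Slc22a8 (OAT3) was 0.32 ± 0.10 higher (10.16 ± 0.21 and 9.84 ± 0.16, adjusted p = 0.259). Under quantile normalization 3 of the 17 genes of the list proximal tubule, early (S1 and S2), were higher, and likewise 3 without week 12 mice 3, 5 and 6. Probe sets higher in these fits numbered 3527 and 2202, beside 4182 with these mice on the deposited values. Late proximal tubule genes had 3 of 15 higher, 1 lower and a median of -0.01, beside 12.9% and 2.18% of all genes higher and lower.

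In fatty acid oxidation 19 of 23 genes had higher means without mouse 10, beside 61.9% of all genes. Of these 23 genes 6 were higher and 0 lower at an unadjusted p under 0.05 (median 0.15), beside 12.9% and 2.18% of all genes. Ppara, the nuclear receptor that governs these genes, read 6.69, 6.96, 6.57, 7.24 and 6.50 at week 14 and 6.05, 6.24 and 6.37 at the bottom, middle and top of week 12. Every week 14 mouse lay above every week 12 mouse, and the difference was 0.54 ± 0.11 (adjusted p = 0.159). Week 12 mice 5, 6, 7 and 10 had exactly the same Ppara value, 6.22, which makes the spread smaller. Cpt1a, the gatekeeper of mitochondrial fatty acid import and a target of PPARα, was 0.43 ± 0.11 higher (9.83 ± 0.19 and 9.39 ± 0.21), and passed with the spread of all untreated mice (adjusted p = 0.0407). Eci2, an isomerase of the oxidation of unsaturated fatty acids, was 0.30 ± 0.09 higher (adjusted p = 0.266).

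In the list of amino acid and organic acid metabolism 6 of 24 genes were higher and 0 lower (median 0.12), among them Aldh4a1, of proline breakdown (0.29 ± 0.08), and Dao, D-amino acid oxidase (0.24 ± 0.07). Beside these counts stand 12.9% of all genes higher and 2.18% lower, and a median of 0.10 for genes above the 40th percentile of mean level. Of 12 genes of glucose synthesis and fructose metabolism 4 were higher and 0 lower (median 0.16). They included the basolateral glucose transporter Slc2a2 (0.29 ± 0.08), the fructose transporter Slc2a5 (0.46 ± 0.14; 0.0249 with the spread of all untreated mice) and triokinase, Tkfc (0.35 ± 0.13). Slc2a5 of mouse 10 was 6.82, below the 8.13 to 8.92 of the other week 12 mice and the 8.49 to 9.14 of week 14. When all 95 arrays were quantile normalized, the medians of fatty acid oxidation and of amino acid metabolism came to 0.02 each, with 4 members higher in each and 1 lower in amino acid and organic acid metabolism. In that fit 3527 of all probe sets were higher and 1818 lower, beside 4182 and 1275 on the deposited values.

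Among cytochrome P450 genes 4 of 15 were higher and 0 lower without mouse 10 (median 0.08), and 2 and 0 with all mice. The share of all genes higher was 12.9% without mouse 10 and 9.21% with all mice. Cyp2c23, a kidney epoxygenase of arachidonic acid, was 0.52 ± 0.14 higher with every week 14 mouse above every week 12 mouse (0.0386 with the spread of all untreated mice), and Cyp4b1 was 0.45 ± 0.13 higher (10.65 ± 0.13 and 10.19 ± 0.27). Cyp1b1 was 0.61 ± 0.16 higher without mouse 10 and 0.42 ± 0.31 with it, because mouse 10 read 10.86, above the 9.21 to 9.82 of week 14. Ugt2b37, a glucuronosyl transferase, went the other way, at 3.89 ± 0.60 and 4.77 ± 0.32 (-0.88 ± 0.24; 0.0298 with the spread of all untreated mice).

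**Figure D4:**
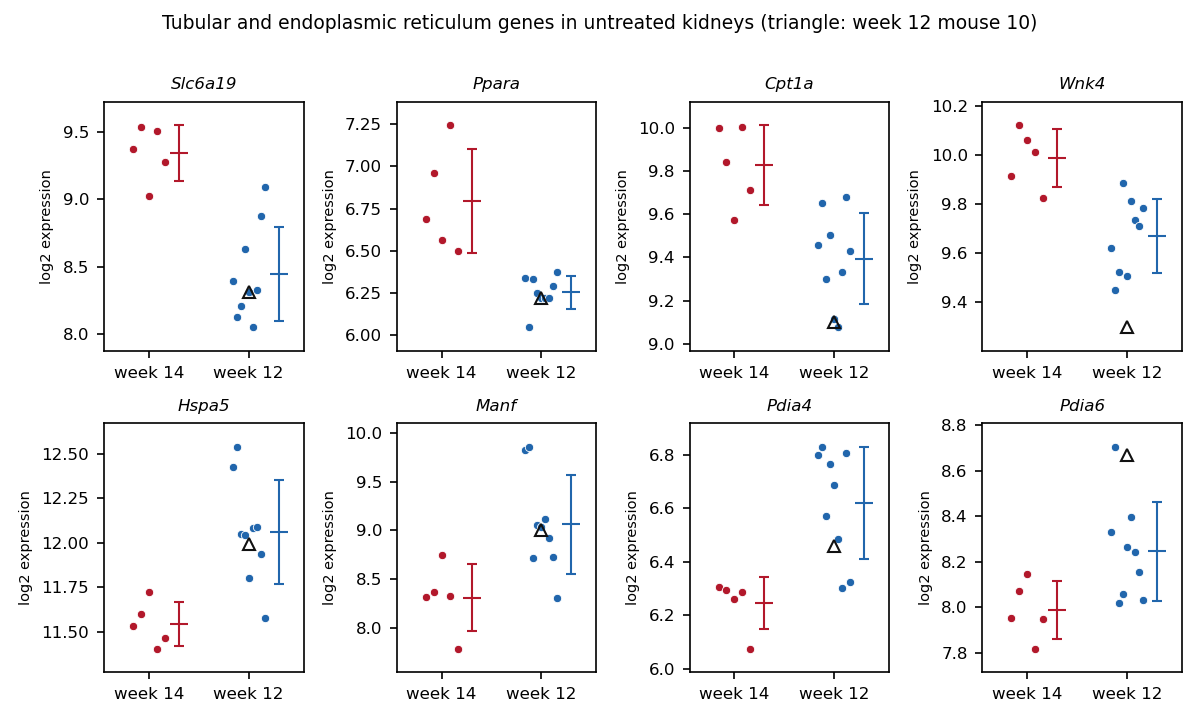
Log2 expression of 4 tubular genes (top) and 4 endoplasmic reticulum genes (bottom) in each untreated mouse, week 14 (5 mice, left) and week 12 (9 mice, right), with mean and SD beside the points and week 12 mouse 10 as an open triangle, not in the mean. Ppara has no overlap between weeks, and Hspa5 and Manf are highest in week 12 mice 1 and 2, at 12.42 and 12.54 for Hspa5.

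Several distal, glomerular and vascular lists had medians of 0.16 to 0.27, beside 0.10 for genes above the 40th percentile of mean level. At an unadjusted p under 0.05, 12.9% of all genes were higher and 2.18% lower. In the distal convoluted tubule 4 of 10 genes were higher and 0 lower (median 0.16), with Wnk4, a kinase that sets sodium chloride transport, at 9.99 ± 0.12 and 9.67 ± 0.15 (0.32 ± 0.08; 0.0413 with the spread of all untreated mice). Trpm7, a magnesium channel (0.32 ± 0.09), and Slc12a3, the thiazide-sensitive cotransporter (0.23 ± 0.09), were among the 4. Intercalated cells, which secrete acid or base, had 5 of 11 genes higher and 0 lower (median 0.27), including the proton pump subunit Atp6v1b1 (0.45 ± 0.15), the ammonia channel Rhcg (0.28 ± 0.12) and Kit (0.27 ± 0.09). Without week 12 mice 3, 5 and 6 the differences of Atp6v1b1 and Rhcg were 0.30 and 0.17, and 2 of the genes of intercalated cells and 2 of the distal convoluted tubule were higher. Higher probe sets numbered 2202 in that fit and 4182 with these mice. Thick ascending limb genes had 0 of 11 in either direction (median -0.01).

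Podocytes, the filtering cells of the glomerulus, had 5 of 10 genes higher and 0 lower (median 0.16), beside 12.9% and 2.18% of all genes. Clic5, of their foot processes, was 10.69 ± 0.13 and 10.49 ± 0.07 (0.20 ± 0.05; 0.0471 with the spread of all untreated mice), Plce1 differed by 0.25 ± 0.07, Ptpro by 0.53 ± 0.19 and nephrin, Nphs1, by 0.36 ± 0.13. Endothelial genes had 4 of 12 higher and 0 lower (median 0.26), with Plvap, of fenestrated vessels, at 0.45 ± 0.19, Egfl7 at 0.41 ± 0.16 and Tie1 at 0.29 ± 0.11. Week 12 mice 3, 5 and 6 had low values of several of these genes. Without them Ptpro differed by 0.31, Plvap by 0.22 and Egfl7 by 0.24, and 2 genes of podocytes and 2 of endothelium were higher. Under quantile normalization 1 of the 12 genes of endothelium, 2 of the 11 of intercalated cells and 1 of the 10 of the distal convoluted tubule were higher. Of 45037 probe sets, 2202 and 3527 were higher in these fits, beside 4182 with these mice on the deposited values. These are probe sets and not genes, so that the list counts of these fits have no share of genes beside them.

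Of 19 measured genes of the unfolded protein response, which serve protein folding in the endoplasmic reticulum, 13 had lower means at week 14 without mouse 10, beside 38.1% of all genes. Among the 19, 0 were higher and 5 lower at an unadjusted p under 0.05 (6 lower with all mice), beside 2.18% of all genes, and the median was -0.18. Hspa5 (BiP), the main chaperone of the endoplasmic reticulum, read 11.53, 11.60, 11.72, 11.40 and 11.47 at week 14, against a lowest, median and highest of 11.58, 12.05 and 12.54 at week 12. Week 14 mice 2 and 3 lay above week 12 mouse 9, the lowest of its group, and below all others. The difference was -0.52 ± 0.14 (adjusted p = 0.224), and Hspa5 passed with the spread of all untreated mice (adjusted p = 0.0322). Manf, a secreted factor that rises with such stress, read 8.32, 8.36, 8.75, 8.33 and 7.78 at week 14 and 8.30, 9.02 and 9.86 at the bottom, middle and top of week 12 (-0.75 ± 0.25, adjusted p = 0.292). Week 14 mice 1 to 4 lay above week 12 mouse 9, and week 14 mouse 3 also above week 12 mice 3 and 8. The disulfide isomerases Pdia4 (-0.37 ± 0.10) and Pdia6 (-0.26 ± 0.11) were also lower in mean, Pdia6 on 1 of its 2 probe sets. Under quantile normalization 8 of the genes of the unfolded protein response were lower, and so were 1818 of all probe sets, beside 1275 on the deposited values.

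Week 12 mice 1 and 2 had the highest Hspa5 (12.42 and 12.54) and Manf (9.83 and 9.86), and both also carried high adrenal gene levels. Without week 12 mice 1, 2, 4 and 8 the difference in Hspa5 was -0.38 and the median of the list -0.06, with 3 members lower. In that fit 3650 of all probe sets were lower, beside 1275 with these mice. With the mean adrenal level of each mouse as a covariate Hspa5 differed by -0.36. The list then had 2 members lower, and 4274 of all probe sets were lower. Both of these comparisons were chosen after the values were seen. The part of adrenal tissue in these values was not tested further.

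The promoters of Hspa5, Hsp90b1 and Pdia6 are shown because all hold the endoplasmic reticulum stress response element (CCAAT, any 9 bases, then CCACG), through which ATF6 and NF-Y switch on chaperone genes. They lie at chr2:34771840-34772139 (plus strand), chr10:86705395-86705694 (minus strand) and chr12:17266339-17266638 (plus strand) of GRCm38.p6, each 300 bases of RefSeq as above, with the element in capitals on whichever strand it was found.
Hspa5: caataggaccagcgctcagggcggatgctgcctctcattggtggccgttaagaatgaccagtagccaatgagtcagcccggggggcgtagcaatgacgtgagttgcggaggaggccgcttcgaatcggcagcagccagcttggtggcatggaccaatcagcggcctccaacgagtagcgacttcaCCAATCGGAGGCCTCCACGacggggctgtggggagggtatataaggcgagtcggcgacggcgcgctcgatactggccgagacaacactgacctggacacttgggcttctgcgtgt
Hsp90b1: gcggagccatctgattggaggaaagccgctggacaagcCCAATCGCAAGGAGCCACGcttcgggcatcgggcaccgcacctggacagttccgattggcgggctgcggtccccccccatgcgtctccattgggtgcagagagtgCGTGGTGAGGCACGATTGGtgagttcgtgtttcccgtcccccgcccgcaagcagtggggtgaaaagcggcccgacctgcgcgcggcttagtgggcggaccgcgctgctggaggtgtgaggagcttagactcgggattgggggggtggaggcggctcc
Pdia6: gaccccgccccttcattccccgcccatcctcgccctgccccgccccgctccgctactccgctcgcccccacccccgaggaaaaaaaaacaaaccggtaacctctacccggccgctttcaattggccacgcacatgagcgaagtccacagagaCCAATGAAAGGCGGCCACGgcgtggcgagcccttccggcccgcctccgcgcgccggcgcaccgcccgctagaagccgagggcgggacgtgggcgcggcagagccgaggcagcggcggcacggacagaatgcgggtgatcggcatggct
The element begins 65 bases before the start of Hspa5 and 98 before that of Pdia6, and Hsp90b1 holds 2. It was held by 6 of the 17 members of the list that have a promoter in the table (Hspa5, Hsp90b1, Dnajc3, Pdia6, Calr and Creld2), beside 39 of all 32851 promoters (0.119%). Hsp90b1, the chaperone GRP94, stood at 10.65 ± 0.09 at week 14 and 10.83 ± 0.32 at week 12 (-0.18 ± 0.14, adjusted p = 0.606).

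Of 13 heat shock genes 0 were higher and 2 lower, Hsph1 (-0.26 ± 0.10) and Hsp90aa1 (-0.38 ± 0.17), with a median of -0.19. Without week 12 mice 1, 2, 4 and 8 that median was -0.05. Sterol synthesis had 2 of 16 lower and 0 higher (median -0.14), Mvk (-0.29 ± 0.09) and Dhcr7 (-0.43 ± 0.18), and the synthesis of fatty acids and lipids had 3 of 14 lower and 0 higher (median -0.17), among them the desaturase Fads2 (-0.20 ± 0.07). These are counts without mouse 10, and with all mice 1 gene of sterol synthesis and 0 of fatty acid and lipid synthesis were lower. Under quantile normalization 4 and 8 members of these lists were lower, with 1818 of all probe sets lower, beside 1275 on the deposited values. On the deposited values 2.18% of all genes were lower at an unadjusted p under 0.05 without mouse 10, and 2.69% with all mice. All 11 urothelial genes had lower means (median -0.40), beside 38.1% of all genes, with 1 of them, Upk1a, a uroplakin of the bladder and renal pelvis lining, at an unadjusted p under 0.05 (-0.52 ± 0.19).

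Cell cycle and early response genes gave single larger values. Ccnd1, cyclin D1, was 11.18 ± 0.30 at week 14 and 10.63 ± 0.29 at week 12 (0.55 ± 0.16; 0.0167 with the spread of all untreated mice). Of 19 cell cycle genes 3 were higher and 0 lower without mouse 10, and 2 and 1 with all mice. Of 24 immediate early genes 6 were higher and 1 lower without mouse 10 and 3 and 1 with all mice, and Btg2, an antiproliferative gene of that list, was 0.87 ± 0.31 higher (adjusted p = 0.312). For Btg2 1 of 2 probe sets had a higher mean. The shares of all genes were 12.9% higher and 2.18% lower without mouse 10, and 9.21% and 2.69% with all mice.

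Immune genes gave other values with mouse 10 than without it. With all mice the median difference of 7 MHC class II genes was 0.25, of 9 complement genes 0.14, of 20 macrophage and monocyte genes -0.01 and of 18 chemokines -0.09, and without mouse 10 they were 0.64, 0.43, 0.36 and 0.22. At an unadjusted p under 0.05 without mouse 10, 2 of 7, 3 of 9, 3 of 20 and 4 of 18 were higher and 0 lower, with 12.9% of all genes higher. With all mice 0 of 7, 0 of 9, 0 of 20 and 1 of 18 were higher and 0 lower, with 9.21% of all genes higher. Without week 12 mice 3, 5 and 6 as well as mouse 10, 1 gene each of complement, macrophages and monocytes, and chemokines was higher. H2-Aa, a class II chain of antigen-presenting cells, read 9.73, 9.96, 9.43, 9.47 and 9.15 at week 14. The week 12 mice ran from 8.32 through a median of 8.78 to 12.59, with mouse 10 at the top and mouse 2 next at 10.31. All week 14 mice lay above the other 8 week 12 mice and below these. The difference was 0.66 ± 0.28 without mouse 10 (adjusted p = 0.376) and 0.29 ± 0.59 with it (adjusted p = 0.873). Without mouse 10, 6 of the 7 MHC class II genes were higher when week 12 mice 1, 2, 4 and 8 were also left out (median 0.85), and 0 when mice 3, 5 and 6 were (median 0.53) or under quantile normalization (median 0.50). The background moved too, with 7196, 2202 and 3527 of all probe sets higher in these fits, beside 4182 without mouse 10 alone.

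H2-Eb1, H2-Ab1 and the invariant chain Cd74 gave 0.67 ± 0.30, 0.65 ± 0.32 and 0.64 ± 0.30 without mouse 10. Ciita, the coactivator through which class II genes are switched on, stood at 4.83 ± 0.05 and 4.99 ± 0.28 (-0.16 ± 0.13). Nlrc5, the corresponding coactivator of class I genes, was 7.74 ± 0.54 and 6.51 ± 0.78 (1.23 ± 0.39, 2.34-fold, adjusted p = 0.269), and mouse 10 had 10.90. With all mice Nlrc5 differed by 0.79 ± 0.72. Tapbp, of class I peptide loading, was 0.25 ± 0.07 higher without mouse 10, on 1 of its 2 probe sets, and 0.08 ± 0.24 with it. Of 7 genes of MHC class I and peptide loading 3 were higher and 0 lower without mouse 10, and 0 and 0 with all mice. The share of all genes higher was 12.9% without mouse 10 and 9.21% with all mice.

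The promoters of H2-Aa and H2-Eb1 are shown for the Y box CTGATTGG, the NF-Y site of class II promoters. They lie at chr17:34287774-34288073 (minus strand) and chr17:34305617-34305916 (plus strand) of GRCm38.p6, again 300 bases of RefSeq with the match in capitals.
H2-Aa: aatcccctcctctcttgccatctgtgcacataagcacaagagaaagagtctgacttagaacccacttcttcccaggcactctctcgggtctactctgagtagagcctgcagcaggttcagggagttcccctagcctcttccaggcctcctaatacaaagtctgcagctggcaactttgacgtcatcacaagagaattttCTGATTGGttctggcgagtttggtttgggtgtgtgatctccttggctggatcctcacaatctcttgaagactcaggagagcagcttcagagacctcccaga
H2-Eb1: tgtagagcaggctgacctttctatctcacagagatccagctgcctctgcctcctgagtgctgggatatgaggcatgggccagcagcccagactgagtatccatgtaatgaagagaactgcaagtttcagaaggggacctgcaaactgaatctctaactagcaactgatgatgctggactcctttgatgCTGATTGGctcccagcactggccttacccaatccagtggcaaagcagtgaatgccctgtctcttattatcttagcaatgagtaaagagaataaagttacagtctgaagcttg
The box begins 51 bases before the start of H2-Aa and 62 before that of H2-Eb1. It was in 2 of the 4 class II genes that have a promoter in the table and in 4.1% of all promoters.

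Of the 20 macrophage and monocyte genes 16 had higher and 4 lower means without mouse 10, and 9 higher and 11 lower with all mice. Of all genes, 61.9% had higher means without mouse 10 and 50.9% with all mice. Csf1r, the receptor for macrophage colony-stimulating factor, was 6.20 ± 0.18 and 5.80 ± 0.17 without mouse 10 (0.39 ± 0.10, adjusted p = 0.218). Tyrobp, a signalling adaptor of myeloid cells, read 7.85, 7.81, 7.58, 7.22 and 6.40 at week 14, and 5.77, 6.33 and 10.31 at the bottom, middle and top of week 12. Mouse 10 was the highest of week 12 and mouse 2, at 8.07, the next, and both lay above all week 14 mice. The difference was 0.98 ± 0.36 without mouse 10 and 0.59 ± 0.65 with it. Cybb, of the phagocyte oxidase, differed by 0.47 ± 0.18 and 0.12 ± 0.52. Il1b, the cytokine interleukin 1β, was 6.41 ± 0.27 and 5.35 ± 0.72 without mouse 10 (1.06 ± 0.33, adjusted p = 0.269), and the NF-κB regulators Nfkbiz and Tnfaip3 differed by 0.60 ± 0.21 and 0.80 ± 0.30. With all mice Il1b, Nfkbiz and Tnfaip3 differed by 0.77 ± 0.51, 0.36 ± 0.40 and 0.52 ± 0.49. In their list, NF-κB and acute phase, 4 of 19 genes were higher and 0 lower without mouse 10, and 0 and 0 with all mice. The share of all genes higher was 12.9% without mouse 10 and 9.21% with all mice. Without mouse 10, 13 of the 19 had higher and 6 lower means (median 0.16), near the 61.9% of all genes with higher means.

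Complement genes C2 and C1s1, of the classical pathway, were 0.50 ± 0.16 and 0.49 ± 0.17 higher without mouse 10. All 9 complement genes measured had higher means then, beside 61.9% of all genes, and 8 with all mice, beside 50.9%. Without mouse 10, interferon-stimulated genes had 2 of 19 higher (Usp18, 0.65 ± 0.28, and Xaf1, 0.55 ± 0.24) and 2 lower (Oas3, -0.36 ± 0.15, and Zbp1, -0.23 ± 0.10), and with all mice 0 were higher and 0 lower. The shares of all genes were 12.9% higher and 2.18% lower without mouse 10, and 9.21% and 2.69% with all mice. Of 16 T cell and cytotoxic genes 0 and of 12 B cell genes 0 passed an unadjusted p under 0.05 in either direction by limma without mouse 10, with medians of -0.01 and -0.07.

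**Figure D5:**
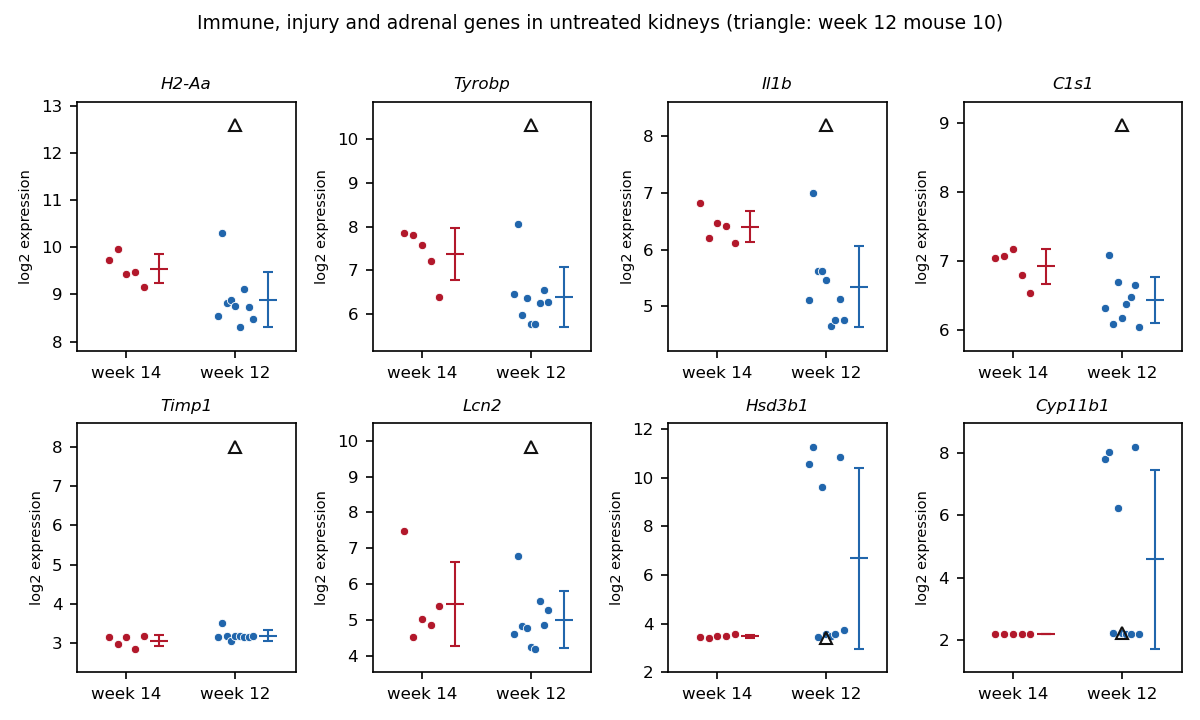
Log2 expression of immune and injury genes and of 2 adrenal genes in each untreated mouse, week 14 (5 mice, left) and week 12 (9 mice, right), with mean and SD beside the points and week 12 mouse 10 as an open triangle, not in the mean. Mouse 10 lies above every other mouse in the first 6 panels, at 8.02 for Timp1 where all others are at 3.51 or below, and Hsd3b1 is high in 4 other week 12 mice.

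Mouse 10 is described here without a test, since it was set apart by these same values. The list level, the mean of a list in a mouse, was 10.28 for MHC class II in mouse 10, against 6.78 to 8.37 in the other 9 week 12 mice and 7.49 to 8.15 at week 14. For macrophages and monocytes it was 8.41 in mouse 10, against 4.86 to 6.32 in the other week 12 mice and 5.27 to 5.74 at week 14. Interferon-γ-induced and acute phase genes were among those farthest from the other week 12 mice. Cxcl9, a chemokine for T cells, stood at 8.49 in mouse 10 and at 2.21 to 4.61 in the other 9, and Saa3, an acute phase protein, at 10.10 and 3.21 to 4.34. The 8 pristane mice of week 12 had Cxcl9 of 2.75 to 6.04 and Saa3 of 4.18 to 9.91, so that mouse 10 lay above all of them in both.

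Injury genes were high in mouse 10 as well. Timp1, an inhibitor of matrix proteases, was 8.02 in mouse 10 and 3.05 to 3.51 in the other week 12 mice, and the pristane mice of week 12 ran from 3.51 to 8.04. Lcn2 (NGAL), a marker of tubular injury, was 9.83 in mouse 10 against 4.20 to 6.80, and week 14 mouse 1, at 7.47, was the highest of its own group, where the other 4 had 4.54 to 5.39. Sox9, of regenerating tubule cells, was 6.13 in mouse 10 against 4.67 to 5.30, and 4.45 to 4.71 at week 14 (-0.33 ± 0.12 without mouse 10). Over all arrays of the series, mouse 10 was closest to pristane week 12 mouse 2, with a correlation of 0.989. Next came pristane week 12 mouse 7 (0.989), untreated week 8 mouse 3 (0.987), pristane week 14 mouse 5 (0.987) and pristane week 12 mouse 4 (0.987).

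Adrenal genes had the median farthest from 0 of the 53 lists, and those named here other than Dbh were high in 4 mice. All 13 measured adrenal genes had lower means at week 14, with a median of -1.55 without mouse 10 and -1.44 with it, and 1 of them, Dbh, the enzyme that makes noradrenaline, at an unadjusted p under 0.05 (-0.40 ± 0.14). Without mouse 10, 38.1% of all genes had lower means, and 2.18% were lower at that p. Dbh did not follow the other genes, with 3.64, 3.55, 3.55 and 4.21 in week 12 mice 1, 2, 4 and 8 and 3.55 to 4.08 in the 6 others. Hsd3b1, a steroid-making enzyme, read 10.55, 11.29, 9.62 and 10.86 in week 12 mice 1, 2, 4 and 8, and 3.39 to 3.75 in the 6 others. At week 14 it was 3.45, 3.39, 3.49, 3.49 and 3.56. The difference in means of -3.21 ± 1.66 (adjusted p = 0.457) thus sets the week 14 mice against a mean of these 4 mice and 5 low ones. Star, Cyp11a1, Cyp21a1 and Chgb, which serve steroid and catecholamine secretion, had the same 4 mice on top, at 7.33 to 10.20, 7.44 to 9.93, 8.64 to 11.02 and 8.14 to 10.75. Cyp11b1 and Mc2r, the enzyme and receptor of cortical cells, lay at the floor of the table, 2.21, in all 5 week 14 mice, and at 6.22 to 8.20 and 4.56 to 7.42 in these 4 mice.

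Leaving these 4 mice out changed the count of calls. With week 12 mice 1, 2, 4 and 8 left out, 77 probe sets were called at an adjusted p under 0.05 without mouse 10 (45 higher and 32 lower), and 37 with it (10 higher and 27 lower). The week 12 mice left without mouse 10 are 3, 5, 6, 7 and 9, with first component values of 3.94 to 74.3, against -39.7 to 10.6 at week 14, and 3 of these 5 are the mice that stand apart on that component. With the adrenal level as a covariate 346 were called without mouse 10 (256 higher and 90 lower). With mice 3, 5 and 6 left out instead, limma called 0 probe sets, and 3011 had an unadjusted p under 0.05. Adrenal tissue, the first component and the week cannot be told apart in these comparisons.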

How the data were processed

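Total RNA of kidneys was hybridised to Affymetrix HT MG-430 PM arrays. The authors deposited log2 values, and the submitters' processing notes name RMA and Partek. RMA corrects background, quantile normalizes and summarises probes, so that differences in total RNA cannot be read from the values. Array medians of the deposited values still ran from 4.22 to 4.57. The lowest value, a floor of 2.21, held 18.4% of values on the 15 arrays, and its origin was not tested. Exact repeats of a value also occur above the floor, as in Pld6, Dzip1 and Ppara. No scanner intensities were used here, and the number of arrays limits the precision.

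Of 45141 probe sets 104 controls (AFFX) were left out and 45037 tested with limma 3.58.1 in R 4.3.3 (lmFit, eBayes, Benjamini-Hochberg adjustment over all probe sets), week 14 against week 12, with and without week 12 mouse 10. Symbols came from the platform annotation. It gave 1 symbol to 28898 probe sets, several to 551 and does not list 15588, which are unnamed here. The probe set of highest mean over all arrays stood for each of 17097 genes. Without mouse 10, its sign was shared by 2 of 3 probe sets for Cyp1b1, Fads2 and Cybb, and by 1 of 2 for Per2. Of 868 members of 53 gene lists 753 were measured. The members and lists were chosen with earlier results of these data known. Named genes were the 5 with the smallest p in each direction, since none was called, up to 4 of each list by p, and for mouse 10 those farthest from the other 9. Of the genes given with a difference, 12 were picked with their values in view and not by this rule (Per2, Tef, Arntl, Npas2, Cry1, Hsp90b1, Ciita, Lcn2, Hsd3b1, Star, Cyp11b1 and Mc2r).

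Deviations from the group means correlated at 0.16 to 0.62 between mice of the same number, over 5 pairs and the 5000 probe sets of highest variance. Since 0 of 5 correlated best with their own number, these values do not show that the numbers pair animals. The labels do not pair them either, and the replicate block is given only as an alternative fit. No arrays were duplicates (highest correlation 0.997). The alternatives were other normalizations, filters, fits, array weights, a replicate block and leaving out mice. The code was tested on simulated data.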

Additional observations from a re-analysis of the deposited data

Results flagged for a closer look

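Of 208 groups of mice looked at, each a gene or a list level within 1 week, 42 had a highest or lowest mouse whose distance from the nearest other mouse was large for the range of the group by Dixon's criterion. Chance alone would set apart about 1 in 20 groups. Week 12 mouse 10 accounted for 31 of the 42. It had been set apart for these same kinds of values beforehand, so that its 31 are a description and cannot be read against that rate, and 11 belong to other mice.

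Genes of antigen presentation set mouse 10 above the other week 12 mice, with H2-Aa at 12.59, H2-Eb1 at 11.82, H2-Ab1 at 12.08, Tapbp at 13.09 and Nlrc5 at 10.90. Complement and macrophage genes did too, with C2 at 8.50, C1s1 at 8.96, Csf1r at 6.93, Tyrobp at 10.31 and Cybb at 8.87. So did interferon-stimulated genes, with Usp18 at 7.23, Xaf1 at 8.56, Oas3 at 5.29 and Zbp1 at 6.52, and regulators of NF-κB, with Nfkbiz at 8.95 and Tnfaip3 at 7.41. Oas3 and Zbp1 were lower at week 14 at an unadjusted p under 0.05 without mouse 10, although mouse 10 had the highest value of both. Injury genes stood at 8.02 for Timp1, 9.83 for Lcn2 and 6.13 for Sox9.

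Mouse 10 was also high for Gucy1a1 at 10.21 (8.74 to 9.38 in the other 9), Cyp1b1 at 10.86 (8.56 to 9.35) and Kit at 5.30 (4.62 to 4.95). It was low for the transporters Slc2a5 at 6.82 and Slc12a3 at 10.02 (10.43 to 10.87 in the other 9). As list levels, mouse 10 stood apart at 7.41 for interferon-stimulated genes, 10.28 for MHC class II, 8.30 for complement, 8.41 for macrophages and monocytes and 8.36 for tubular injury. It was low for the early proximal tubule at 10.46 and for the distal convoluted tubule at 9.63.

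Week 14 mouse 5 was low for Wdfy3 at 11.53 (11.65 to 11.67 in the other 4), Pdia4 at 6.07, C2 at 7.29 and the podocyte list at 7.15. Week 14 mouse 4 was high for Cyp2c23 at 7.66 and Cyp4b1 at 10.87, and week 14 mouse 3 for Npas2 at 7.29. Week 14 mouse 1, which had the highest Lcn2 of its week, had a tubular injury level of 6.58, against 6.11 to 6.19 in the other 4. At week 12, mouse 2 was low for Ppara at 6.05, mouse 8 high for Dao at 11.08 and mouse 9 low for Plce1 at 4.87.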

How the results depend on the processing

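Both comparisons called 0 probe sets with limma under quantile normalization of all 95 arrays, either filter on low values, and a trended and robust variance. Between 4252 and 5624 probe sets had an unadjusted p under 0.05 in these fits. A stricter adjusted p of 0.01 and a 2-fold minimum could only give 0, since no probe set passed the main threshold. The replicate block, which treats mice of the same number as pairs although nothing shows that they are, also called 0 (5355 at an unadjusted p under 0.05) and changed no call. With all mice, centring each array on its median called 1 probe set, and averaging the probe sets of a gene called 1 gene. A single fit over all groups of the series called 841 probe sets with all mice and 851 without mouse 10, a single fit over all untreated mice 319 and 412, and array weights 227 and 112. Leaving out 1 mouse gave 0 to 14 calls with all mice, the 14 without week 14 mouse 5, and 0 to 2 without mouse 10.

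Chosen after seeing the data, leaving out week 12 mice 1, 2, 4 and 8 called 37 probe sets with all mice and 77 without mouse 10, and the adrenal level as a covariate 11 and 346. Leaving out week 12 mice 3, 5 and 6 called 0 (2620 and 3011 at an unadjusted p under 0.05). The cause of these changes was not tested.

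Without mouse 10, the difference of Pgm2l1 was 0.0015 when all its probe sets were averaged. Lcn2 ranged from -0.061 without week 14 mouse 1 to 0.67 without week 14 mouse 2. Star was 0.19 without mice 1, 2, 4 and 8, and 0.36 with the adrenal covariate, under which Cyp11b1 was 0.077 and Mc2r 0.18. Values at the floor of the table carry no order, and with 5 mice at week 14 small differences may be missed.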

Other observations

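Some gene groups outside the comparisons above were nearly level between the weeks. Oxidative phosphorylation had a median difference of 0.01 over 22 genes, the citrate cycle 0.04 over 14 and the proteasome 0.02 over 17, all without mouse 10. Cytosolic ribosomal proteins had higher means at week 14 in 16 of 17 genes (median 0.08), beside 61.9% of all genes, with 3 at an unadjusted p under 0.05 and 0 lower. Glucocorticoid-responsive genes had a median of 0.28 over 17 genes, with 2 higher and 0 lower, and with all mice 1 and 0. The share of all genes higher was 12.9% without mouse 10 and 9.21% with all mice. Perirenal fat genes ranged in list level from 6.74 to 8.37 at week 14 and from 5.70 to 8.29 at week 12.

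Week 12 mouse 10 also lay more than 1 log2 unit below all other 94 arrays of the series at 54 probe sets, where other arrays had a median of 0 and at most 33. At 18 probe sets it was more than 2 units below, where other arrays had at most 4. Bsg (basigin) read 4.56 in mouse 10 and 8.05 to 9.70 elsewhere, and Ddt 7.18 and 9.75 to 11.2. For 3 genes another probe set of the same gene did not share the low value. Vps41 read 5.50 in mouse 10 on one probe set, against 8.98 or more elsewhere, and 7.04 on the other, against 6.47 to 7.40. Pfn2 read 8.94 against 10.5 to 12.2, and 9.68 against 9.10 to 10.2. Prkcd read 3.68 against 5.96 to 7.50, and 4.76 against 4.07 to 5.41. These genes were chosen after their values were seen, and the cause was not tested.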
